A study of Mus musculus with 10 samples.

Results

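The keratin-associated protein (Krtap) genes were described in the skin of Tsk2 mice at 4 months and 1 month of age. Members were all array probes whose platform gene symbol begins with Krtap and a digit, which keeps out the epidermal gene Krtdap. This gave 46 of the 41174 probes, for 42 genes of 23 numbered families. Of these genes, 19 had values in enough samples to be tested between ages, among 13501 genes tested in all.

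Keratin-associated proteins are small proteins of the hair shaft. They fill the space between the keratin filaments of the hair cortex and cuticle and are joined to the hair keratins through disulphide bonds. The family is divided by amino acid content into high-sulphur, ultra-high-sulphur and high glycine-tyrosine proteins. The genes lie in clusters, and they are transcribed in the keratinizing cells of a follicle that is making a hair, late in the growth phase of the hair cycle. By family number, 12 members were high-sulphur, 12 ultra-high-sulphur and 14 high glycine-tyrosine. Families 16, 28 and 31 (4 genes) were left unclassed, because no protein sequence was used here to place them.

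Skin RNA was hybridised on 10 two-colour arrays beside a reference RNA named UMR. There were 4 skin samples of Tsk2 mice at 4 months and 4 of Tsk2 mice at 1 month, and in each age 1 sample was run on 2 arrays, which were averaged. Tsk2 is a tight-skin strain used as a model of scleroderma, with a mutation in the collagen gene Col3a1. The labels call both ages Tsk2 transgenic, and skin without the mutation was not analysed here, so age is the only contrast. Titles carry an ID number with a suffix. At 4 months sample 1 had one number, samples 2 and 3 shared another, and sample 4 had the third. At 1 month samples 1 and 2 shared a number, and samples 3 and 4 shared another. No number occurred at both ages, so age cannot be told apart from other differences between these numbers. Separate animals are not stated for the samples, so p-values refer only to the spread from sample to sample.

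Of the 42 genes, 21 lie on mouse chromosome 16, 15 on chromosome 11, 4 on chromosome 7 and 1 each on chromosomes 10 and 1. RefSeq promoter sequence (GRCm38.p6) was at hand for 39 of them, all but Krtap7-1, Krtap9-1 and Krtap12-1. The 70 bases before the annotated start are shown for 10 members that recur in the results, 5′ to 3′ on the gene's own strand. Capitals mark the letters TATAAA of a TATA box, the element that places the start of transcription in many strongly expressed genes.
Krtap9-3 (chr11:99598107-99598176, minus strand): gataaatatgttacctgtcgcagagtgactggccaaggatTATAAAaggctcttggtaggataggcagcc
Krtap4-6 (chr11:99665961-99666030, minus strand): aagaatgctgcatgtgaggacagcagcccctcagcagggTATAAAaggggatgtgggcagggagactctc
Krtap3-1 (chr11:99566631-99566700, minus strand): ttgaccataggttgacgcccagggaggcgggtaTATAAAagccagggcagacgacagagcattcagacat
Krtap31-1 (chr11:99907850-99907919, plus strand): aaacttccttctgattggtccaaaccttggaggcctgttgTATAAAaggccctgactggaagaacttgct
Krtap31-2 (chr11:99936221-99936290, plus strand): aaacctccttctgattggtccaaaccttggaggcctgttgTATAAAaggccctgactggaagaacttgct
Krtap5-1 (chr7:142297135-142297204, minus strand): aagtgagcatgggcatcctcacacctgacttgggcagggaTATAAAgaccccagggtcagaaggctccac
Krtap5-4 (chr7:142303432-142303501, plus strand): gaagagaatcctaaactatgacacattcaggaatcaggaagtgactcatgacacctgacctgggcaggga
Krtap16-3 (chr16:88962874-88962943, minus strand): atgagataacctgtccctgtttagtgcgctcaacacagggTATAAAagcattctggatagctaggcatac
Krtap6-1 (chr16:89031629-89031698, plus strand): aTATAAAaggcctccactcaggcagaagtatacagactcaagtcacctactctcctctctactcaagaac
Krtap8-1 (chr16:89487953-89488022, minus strand): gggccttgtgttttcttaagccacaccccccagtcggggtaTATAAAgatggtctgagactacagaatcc

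Most members carry a TATA box. On the gene's own strand, TATAAA stood within 250 bases before the start in 30 of the 39 members (76.9%), against 7.59% of the 32851 promoters in the table. In 23 members (59.0%) the copy nearest the start began 25 to 40 bases before it, against 1.91% of all promoters. Krtap5-4 has no copy before its annotated start, but 1 begins at base 1 after it. Among the other members without one (Krtap3-3, Krtap5-3, Krtap14, Krtap15 and Krtap19-1 to Krtap19-4), the 50 bases after the start hold none either. The longer form TATATAAG stood in 7 members (17.9%), against 0.642% of all promoters, and its letters hold no TATAAA. Motifs of hair matrix factors were searched on both strands. The LEF1 and TCF core was found as CTTTGAA in 6 members (15.4%, against 4.46% of all promoters) and as CTTTGTT in 7 (17.9%, against 5.03%). TCGTAAA and CAATAAA, forms bound by group 13 HOX proteins, were found in 0 of 39 members, against 0.478% and 4.20% of all promoters. These are matches of letters in a short window and do not show binding.

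**Figure D1:**
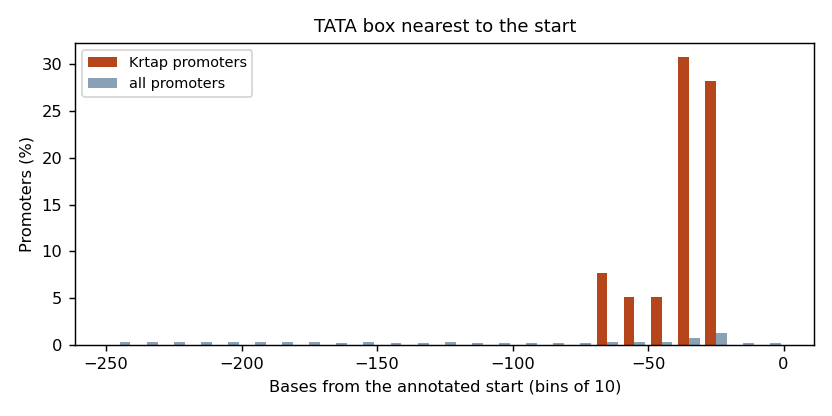
Share of promoters (vertical axis, percent) whose TATAAA nearest to the annotated start falls in each bin of 10 bases (horizontal axis, bases from the start), for the 39 Krtap promoters and for all 32851 promoters. The Krtap copies gather close to the start, with 59.0% beginning 25 to 40 bases before it against 1.91% of all promoters.

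Each expression value is a log2 ratio, skin over reference. Which dye is the numerator is not named, so this direction is a likely one and not stated: with it, the medians of the epidermis list (4.65 to 5.78) and the skeletal muscle list (4.11 to 6.57) were above 0 on all 10 arrays. With the other direction every sign below would turn. Exact zeros, 26.04% to 47.35% of an array's probes, were read as not measured. Ratios of different genes come from different probes and are not compared in level. Members of a family can be close in sequence, so a probe may also read a related gene.

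The family was measured unevenly between samples of one age. At 4 months, 22, 29, 15 and 30 of the 42 genes had a value in samples 1 to 4, and 7, 19, 5 and 26 of them had a log2 ratio over 2. At 1 month, 25, 20, 40 and 36 genes had a value in samples 1 to 4, and 13, 2, 35 and 31 were over 2. High and low samples therefore occurred at both ages: 4-month sample 4 and 1-month samples 3 and 4 held the most genes over 2, and 4-month samples 1 and 3 and 1-month sample 2 the fewest. The share of all probes with a value did not follow this order, since it was 72.8% in 4-month sample 1, 64.2% in 4-month sample 3 and 73.9% in 1-month sample 2, against 70.7% in 4-month sample 4 and 69.8% and 71.2% in 1-month samples 3 and 4. In all, 217 of 336 gene and sample pairs had a value, and 9 genes had one in all 8 samples. The counts of 4-month sample 2 and 1-month sample 1 join 2 arrays each, since a value on either array was enough. The arrays of 4-month sample 2 measured 31 and 14 of the 46 Krtap probes, and those of 1-month sample 1 measured 24 and 21.

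**Figure D2:**
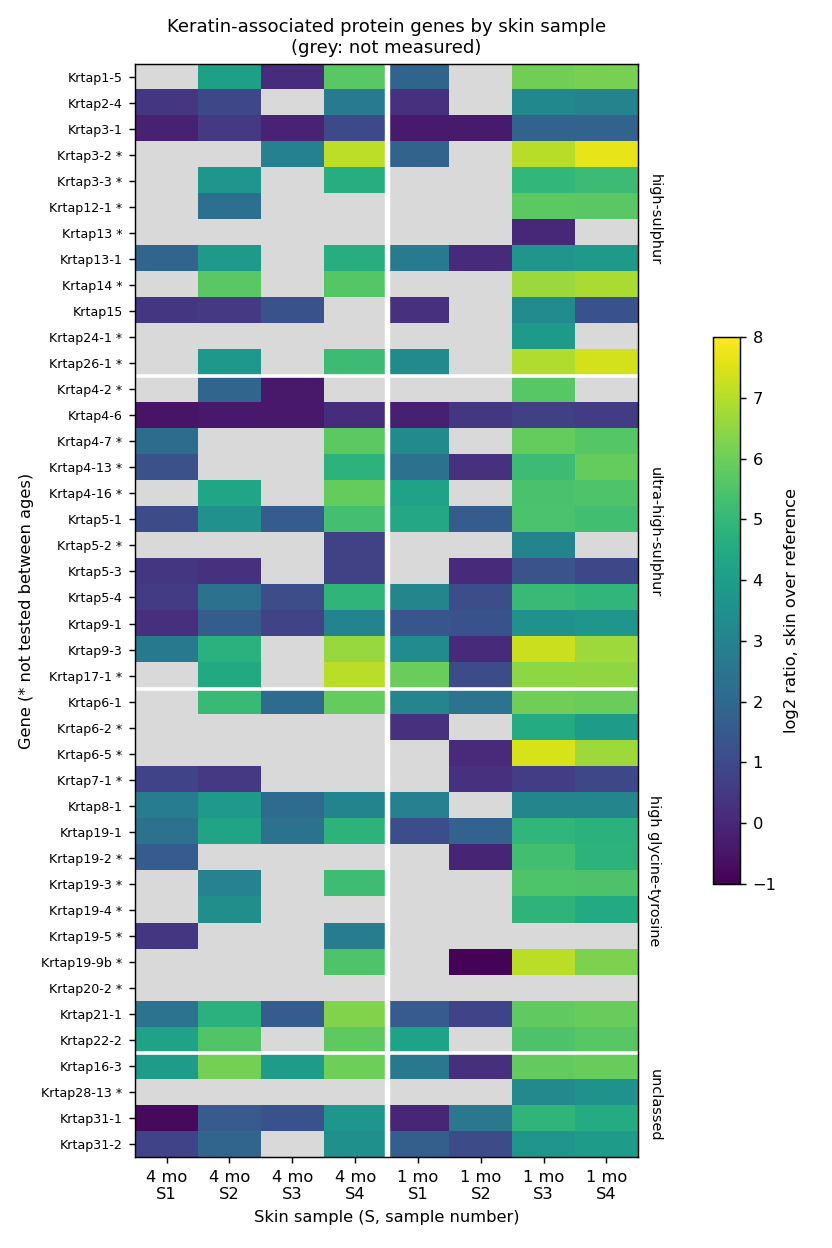
Log2 ratio of skin over reference (colour) for the 42 Krtap genes (rows, grouped by class, an asterisk for genes not tested between ages) in the 8 skin samples (columns, 4 months on the left and 1 month on the right); grey cells were not measured. The columns of 4-month sample 4 and 1-month samples 3 and 4 are bright in all classes, while 4-month samples 1 and 3 and 1-month samples 1 and 2 are darker or grey.

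Repeat arrays show how far a missing value can be trusted. In 4-month sample 2, 12 of the 46 probes had a value on both arrays, 13 on neither and 21 on 1 array only, and 14 of those 21 had a log2 ratio over 2. In 1-month sample 1, 16 probes had a value on both arrays, 17 on neither and 13 on 1 only, of which 5 were over 2. Probes measured on both arrays differed by a median of 0.39 in 4-month sample 2 and 0.27 in 1-month sample 1. A probe without a value on one array could thus be well above 2 on the other.

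No tested member passed the test between ages, and the intervals were wide. In limma with ID number as a random block and Benjamini-Hochberg adjustment over all 13501 genes, 0 of the 19 Krtap genes were higher and 0 lower at 4 months at a threshold of 0.05. Over all genes 7.25% passed (4.19% higher and 3.06% lower). At an unadjusted p under 0.05, 1 of 19 members passed, against 24.3% of all genes. The values of the ages did not overlap in 0 of 19 members, against 21.1% of all genes. The median difference of the members, 4 months minus 1 month, was -0.45 (range -1.52 to 1.35), against 0.03 for all genes, and 12 of 19 were below 0, against 47.7% of all genes. With the mean of the muscle list as a covariate the median turned to 0.67, and with the Xist level as a covariate, an alternative chosen after seeing the data, it was -0.97. Each of these left 0 members past the threshold. These differences leave out values that were not measured, and of the 23 genes not tested 11 had under 3 values at 4 months only, 0 at 1 month only and 12 at both ages.

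**Figure D3:**
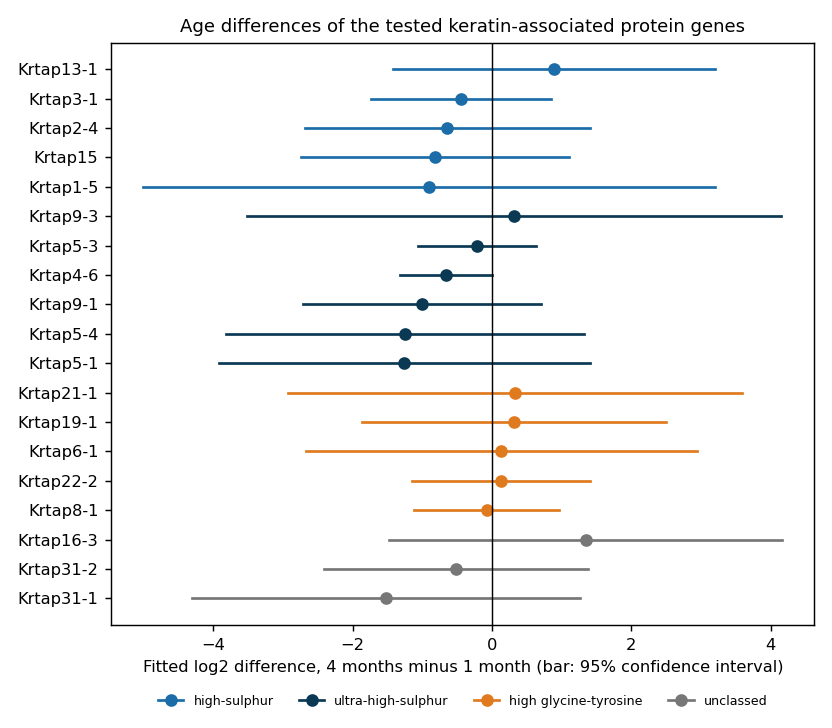
Fitted log2 difference, 4 months minus 1 month, of the 19 tested Krtap genes (points, coloured by class) with 95% confidence intervals (bars). All intervals cross 0 except that of Krtap4-6, which ends just below it, and differences run from -1.52 in Krtap31-1 to 1.35 in Krtap16-3.

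High-sulphur genes encode cysteine-rich matrix proteins of the hair shaft. Krtap1-5 had 4.10, 0.12 and 5.71 in 4-month samples 2, 3 and 4, against 1.91, 6.05 and 6.14 in 1-month samples 1, 3 and 4. Both ages thus held a low and a high sample, and the fitted difference was -0.90 ± 1.77 (SE, 3 samples per age, limma adjusted p = 0.814). The low 4-month value, 0.12, was the median ratio of its array, and the low 1-month value, 1.91, was shared by 78 probes. Krtap1-5 could not be tested with ratios shared by 100 or more probes read as not measured. Krtap13-1 had 1.94, 3.86 and 4.62 in 4-month samples 1, 2 and 4, against 2.71, 0.09, 3.69 and 3.84 in 1-month samples 1 to 4. The highest value came from 4-month sample 4 and the lowest from 1-month sample 2, with a difference of 0.89 ± 1.02 (limma adjusted p = 0.658). That lowest value was a ratio held by 2106 probes of its array. The difference of Krtap13-1 was 0.16 without 1-month sample 2, 0.14 with repeated values read as not measured and -0.32 with zeros kept.

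Krtap15 gave 0.42, 0.48 and 1.27 in 4-month samples 1, 2 and 3, against 0.30, 3.34 and 1.28 in 1-month samples 1, 3 and 4, so that a single 1-month sample stood above the rest. Krtap2-4 was 0.42, 0.96 and 2.69 in 4-month samples 1, 2 and 4, against 0.30, 3.21 and 3.02 in 1-month samples 1, 3 and 4. Their differences were -0.82 ± 0.83 and -0.64 ± 0.88 (limma adjusted p = 0.608 and 0.721). The 0.42 and 0.30 of both genes were ratios shared by 2403 and 1854 probes of their arrays. In 4-month sample 2, the 0.48 of Krtap15 was shared by 2280 probes of an array and the 0.96 of Krtap2-4 by 572. Neither gene could be tested with such ratios read as not measured. Krtap3-1 has 3 probes, of which 1 could be tested. That probe read -0.16, 0.48, -0.11 and 1.00 in 4-month samples 1 to 4, against -0.34, -0.37, 1.88 and 1.88 in 1-month samples 1 to 4, a difference of -0.45 ± 0.58 (limma adjusted p = 0.699). The other probes of Krtap3-1 were measured in samples 2 and 4 at 4 months and in every 1-month sample, and there too 1-month sample 2 was lowest. The median difference of the 5 high-sulphur genes was -0.64, with 4 below 0.

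Ultra-high-sulphur genes hold the most cysteine of the family, and those of family 5 are known from the hair cuticle in human follicles. Krtap5-1 had 1.10, 3.57, 1.62 and 5.30 in 4-month samples 1 to 4, against 4.45, 1.61, 5.46 and 5.27 in 1-month samples 1 to 4. Krtap5-4, its neighbour on chromosome 7, had 0.59, 2.37, 1.12 and 4.88 in 4-month samples 1 to 4, against 3.11, 1.12, 5.09 and 4.91 in 1-month samples 1 to 4. Both genes put 4-month sample 4 beside 1-month samples 3 and 4, and 1-month sample 2 beside 4-month sample 3. Their differences were -1.26 ± 1.19 and -1.25 ± 1.15 (limma adjusted p = 0.574 and 0.561). Krtap5-3 ran from 0.29 to 0.78 in 3 samples at 4 months, against 0.09 to 1.29 in 3 samples at 1 month (-0.21 ± 0.36, limma adjusted p = 0.782). Its ratios in 4-month samples 1 and 4 were shared by 2403 and 655 probes of their arrays. Those in 1-month samples 2 and 4 were shared by 2106 and 333. Krtap5-3 could not be tested with such ratios read as not measured.

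Krtap9-1 had 0.21, 1.65, 0.83 and 3.06 in 4-month samples 1 to 4, against 1.39, 1.25, 3.54 and 3.68 in 1-month samples 1 to 4, a difference of -1.0 ± 0.76 (limma adjusted p = 0.473). The 2 highest values were those of 1-month samples 3 and 4, followed by 4-month sample 4. Krtap9-3 had 2.64, 4.74 and 6.62 in 4-month samples 1, 2 and 4, against 3.35, 0.09, 7.27 and 6.67 in 1-month samples 1 to 4. The 1-month samples of Krtap9-3 thus spanned more than the 4-month ones, and its difference was 0.32 ± 1.69 (limma adjusted p = 0.935). Its 0.09 in 1-month sample 2 was a ratio held by 2106 probes of that array. The sign of its difference turned in 6 of 16 alternatives. Among these it was -0.75 without 1-month sample 2 and -0.83 with repeated values read as not measured. Krtap4-6 was the member with an unadjusted p under 0.05, and it differed least between samples of one age. It had -0.54, -0.37, -0.39 and 0.19 in 4-month samples 1 to 4, against -0.19, 0.45, 0.71 and 0.61 in 1-month samples 1 to 4. The highest 4-month value lay above the lowest 1-month value, and the difference was -0.66 ± 0.29 (95% confidence interval -1.32 to -0.00, limma adjusted p = 0.204). Of the 6 ultra-high-sulphur genes 5 were below 0, with a median of -0.83.

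High glycine-tyrosine genes encode proteins rich in glycine and tyrosine that are laid down in the cortex. Krtap21-1 had 2.43, 4.74, 1.61 and 6.31 in 4-month samples 1 to 4, against 1.57, 0.80, 5.82 and 5.92 in 1-month samples 1 to 4 (0.33 ± 1.46, limma adjusted p = 0.923). Krtap6-1 had 5.08, 2.15 and 5.88 in 4-month samples 2, 3 and 4, against 3.10, 2.41, 6.06 and 5.93 in 1-month samples 1 to 4 (0.14 ± 1.23, limma adjusted p = 0.964). In both genes each age held high samples, near 6, and low ones. Krtap22-2 had 4.18, 5.54 and 5.77 in 4-month samples 1, 2 and 4, against 4.21, 5.50 and 5.67 in 1-month samples 1, 3 and 4. Where it was measured, its values at both ages lay between 4.18 and 5.77 (0.13 ± 0.55, 95% confidence interval -1.15 to 1.40, limma adjusted p = 0.920).

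Probes for a gene disagreed in this class. Krtap19-1 has 2 probes, and its gene value was 0.31 ± 0.98 between ages (limma adjusted p = 0.886). One probe read 4.03, 6.01 and 6.03 in 4-month samples 1, 2 and 4, against 1.91, 5.33 and 5.41 in 1-month samples 1, 3 and 4. The other read 0.66, 2.49, 1.32 and 3.61 in 4-month samples 1 to 4, against 0.38, 0.74, 4.51 and 4.10 in 1-month samples 1 to 4. Their differences had opposite signs, 1.33 ± 0.99 and -0.40 ± 1.02 (limma adjusted p = 0.474 and 0.865), and missing probe values of the gene were filled by a fit over its probes. The 1.91 in 1-month sample 1 was a ratio held by 78 probes of an array. The sign of the gene's difference turned in 7 of 20 alternatives. Among these it was -0.99 without 4-month sample 4 and -0.36 with first arrays only. Krtap8-1 was tested through 1 of its 2 probes, with 2.81, 3.85, 2.16 and 3.05 in 4-month samples 1 to 4, against 2.93, 3.13 and 3.08 in 1-month samples 1, 3 and 4 (-0.08 ± 0.46, limma adjusted p = 0.943). The untested probe of Krtap8-1 read 5.07 and 4.66 in 4-month samples 2 and 4, against 4.69, 1.94, 4.66 and 4.88 in 1-month samples 1 to 4. The median difference of the 5 genes was 0.14, with 4 above 0, but it fell below 0 in 7 of 21 alternatives, among them quantile normalization (-0.37) and the fit without 4-month sample 4 (-0.63). Differences between the classes were not tested.

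The unclassed genes held both ends of the range. Krtap16-3, of a family that depends on the homeobox factor Hoxc13 in mouse hair, had 3.94, 6.10, 3.96 and 6.01 in 4-month samples 1 to 4, against 2.60, 0.24, 5.85 and 5.92 in 1-month samples 1 to 4. No 4-month sample was as low as 1-month samples 1 and 2, and the difference was 1.35 ± 1.26 (limma adjusted p = 0.570). It was 0.52 without 1-month sample 2, 0.45 with repeated values read as not measured, 0.30 with the Xist level as a covariate and 3.37 with muscle as a covariate. Krtap31-1 had -0.76, 1.58, 1.28 and 3.73 in 4-month samples 1 to 4, against -0.02, 2.55, 4.88 and 4.54 in 1-month samples 1 to 4 (-1.52 ± 1.25, limma adjusted p = 0.505). Krtap31-2 had 0.80, 1.95 and 3.54 in 4-month samples 1, 2 and 4, against 1.73, 1.08, 3.69 and 3.95 in 1-month samples 1 to 4 (-0.52 ± 0.83, limma adjusted p = 0.763). In the promoter windows shown above, Krtap31-1 and Krtap31-2 share 69 of 70 bases, and they share 202 of 250 over the longer window. Promoter letters do not show whether the probes of these genes read each other, and that was not tested.

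The 23 genes not tested had too few values. Of these, 17 were measured in both 1-month samples 3 and 4. Of the 17, 12 were measured in neither 4-month sample 1 nor 4-month sample 3, and 6 in neither 1-month sample 1 nor 1-month sample 2. Krtap6-5 was not measured at 4 months, against 0.09, 7.45 and 6.69 in 1-month samples 2, 3 and 4. Krtap3-2 had 2.97 and 7.10 in 4-month samples 3 and 4, against 1.86, 7.02 and 7.66 in 1-month samples 1, 3 and 4. Krtap26-1 had 3.81 and 5.16 in 4-month samples 2 and 4, against 3.30, 6.92 and 7.37 in 1-month samples 1, 3 and 4. In these high-sulphur and glycine-tyrosine genes the highest values again came from 4-month sample 4 or from 1-month samples 3 and 4.

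Others followed a like layout. Krtap17-1 had 4.45 and 7.05 in 4-month samples 2 and 4, against 5.94, 1.08, 6.46 and 6.49 in 1-month samples 1 to 4. Krtap14 had 5.70 and 5.64 in 4-month samples 2 and 4, against 6.63 and 6.85 in 1-month samples 3 and 4. Krtap19-9b had 5.53 in 4-month sample 4 alone, against -0.92, 7.08 and 6.21 in 1-month samples 2, 3 and 4. Exceptions were Krtap7-1, with 0.80 and 0.48 in 4-month samples 1 and 2, against 0.28 to 0.94 in 3 samples at 1 month, and Krtap19-5, with 0.42 and 2.78 in 4-month samples 1 and 4 and no value at 1 month. The Krtap7-1 ratios of 4-month samples 1 and 2 were shared by 792 and 2280 probes of their arrays. Those of 1-month samples 2 and 4 were shared by 1502 and 333 probes, and the 0.42 of Krtap19-5 by 2403. Krtap20-2 was measured in no sample, and Krtap13 only in 1-month sample 3, at -0.01. The other genes not tested were Krtap3-3, Krtap4-2, Krtap4-7, Krtap4-13, Krtap4-16, Krtap5-2, Krtap6-2, Krtap12-1, Krtap19-2, Krtap19-3, Krtap19-4, Krtap24-1 and Krtap28-13. Where these had a value in 4-month sample 4 it lay between 0.78 and 5.89, and in 1-month sample 3 between 3.04 and 5.88.

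Spread within an age was the main feature of the family. The within-age standard deviation of the 19 tested genes had a median of 1.60 (0.365 to 2.86), against 0.386 for all genes. Of the 19, 15 lay above the 95th percentile of all genes and 12 above the 99th. Krtap4-6, Krtap5-3, Krtap8-1 and Krtap22-2 lay below the 95th. The mean of the 9 genes with a value in every sample was 1.02, 2.71, 1.37 and 3.92 in 4-month samples 1 to 4, against 1.52, 1.05, 4.24 and 4.16 in 1-month samples 1 to 4. By age this is 2.25 ± 1.33 at 4 months and 2.75 ± 1.69 at 1 month (SD, n = 4 per age), so the ages differed by less than the spread within either.

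At 1 month most tested members with a value in all 4 samples differed between the ID numbers. The mean of samples 3 and 4 minus the mean of samples 1 and 2 was above 2 on the log2 scale in 12 of 13 such Krtap genes. Over all 12815 tested genes with all 4 values it was 0.429%. This comparison was chosen after the values were seen and rests on 2 ID numbers, so it carries no test. Of the 55 genes over 2 among these 12815, 12 were members of the family. Among the 13, the largest differences were 5.24 in Krtap9-3, 4.69 in Krtap21-1, 4.46 in Krtap16-3 and 3.44 in Krtap31-1, and the smallest was 0.54 in Krtap4-6. The median of the 13 was 2.89. Krtap4-13 and Krtap17-1, not tested between ages, also had all 4 values, with differences of 4.17 and 2.96. The comparisons of samples that follow also cover tested genes only. Samples 3 and 4 share a number. Sample 3 was above sample 4 by over 2 in 1 of 19 members, against 0.153% of all genes, and below it by over 2 in 0 of 19, against 0.145%, with a median of 0.10. Samples 1 and 2, which share the other number, were less alike: sample 1 was higher by over 2 in 4 of 13 members, against 0.416% of all genes, and lower by over 2 in 1 of 13, against 1.45%, with a median of 0.68.

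**Figure D4:**
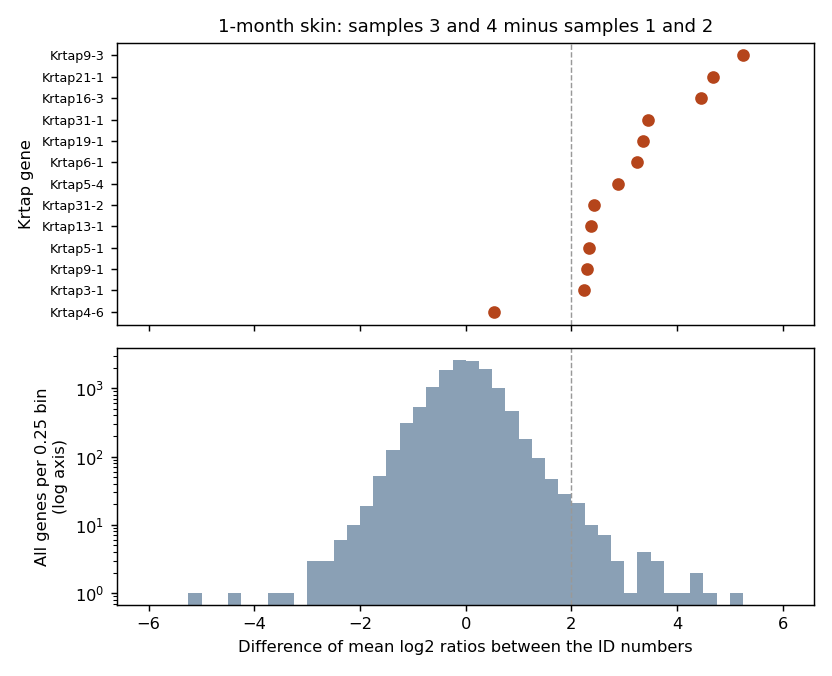
Difference of mean log2 ratios at 1 month, samples 3 and 4 minus samples 1 and 2 (horizontal axis), for the 13 tested Krtap genes with all values (upper panel, points) and for all 12815 such genes (lower panel, counts per bin of 0.25 on a log axis). The dashed line marks 2, which 12 of the 13 Krtap genes passed, against 0.429% of all genes.

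At 4 months members differed both between and within the ID numbers. Sample 4 was above sample 1 by over 2 in 11 of 16 members (median 2.58), against 1.62% of all genes, and above the mean of samples 2 and 3 by over 2 in 6 of 12 (median 2.04), against 0.61%. The mean of samples 2 and 3 was above sample 1 by over 2 in 1 of 11 members (median 0.98), against 0.467%. Samples 2 and 3 share a number, and sample 2 was still higher than sample 3 by over 2 in 4 of 13 members (median 1.69), against 0.317% of all genes. Krtap21-1 was one of these, with 4.74 in sample 2 and 1.61 in sample 3.

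Several other measures moved with these samples. Many of the low Krtap values in 1-month sample 2 were ratios shared by 100 or more probes of the array: 15 of its 23 measured Krtap probes held such a value, against 37.1% of all measured probes there. The value 0.09 stood for Krtap3-1, Krtap5-3, Krtap6-5, Krtap9-3 and Krtap13-1 and for 2106 probes of that array in all. In 4-month sample 1 it was 9 of 23 Krtap probes, against 33.8% of all probes, so the Krtap share there was close to that of the array. In 1-month samples 3 and 4 it was 3 of 44 and 2 of 40, against 33.3% and 35.9% of all probes. With repeated values also read as not measured, 14 members could be tested between ages. Krtap1-5, Krtap2-4, Krtap5-3, Krtap15 and Krtap31-2 could not. In that reading 5 of 6 members were still over 2 between the 1-month ID numbers, against 0.336% of all genes. With zeros kept as a ratio of 0 it was 33 of 42, against 0.887%.

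Xist, the RNA that coats the inactive X chromosome in females, was 1.08 in 4-month sample 1 and 2.27 and 1.67 in 1-month samples 1 and 2. It was -4.06, -3.26 and -3.27 in 4-month samples 2 to 4 and -3.37 and -2.96 in 1-month samples 3 and 4. The Y-linked gene Kdm5d ran the other way, with -2.42 in 4-month sample 1 and 0.01 to 0.80 in 4-month samples 2 to 4, against -1.96 and -2.37 in 1-month samples 1 and 2 and 0.78 and 0.66 in 1-month samples 3 and 4. The labels give no sex. The 3 samples with an Xist ratio above 0 had Krtap means of 1.02, 1.52 and 1.05, but 4-month sample 3, with an Xist ratio below 0, had 1.37. At 1 month the Xist level and the ID number changed together and cannot be told apart.

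Skeletal muscle genes were also uneven. The mean of 29 muscle genes was 5.05, 5.52, 6.50 and 5.11 in 4-month samples 1 to 4, against 4.36, 5.51, 3.92 and 4.09 in 1-month samples 1 to 4. It was highest in 4-month sample 3 and lowest in 1-month samples 3 and 4. In limma 6 of the 29 genes were higher at 4 months and 0 lower, against 4.19% and 3.06% of all genes. The mean of 12 interfollicular epidermis genes was 4.49, 4.98, 5.63 and 5.11 in 4-month samples 1 to 4, against 4.50, 5.61, 4.52 and 4.75 in 1-month samples 1 to 4, and 1 of 14 tested genes was higher. In whole skin, fewer cells of a type and less RNA per cell cannot be told apart. Beyond the covariate fits above, the part of muscle content or of Xist in the Krtap values was not tested.

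Among the structural partners of the Krtap proteins no hair keratin passed either. Of 16 hair shaft keratins listed, 8 were tested. In limma 0 were higher and 0 lower at 4 months, against 4.19% and 3.06% of all genes. At an unadjusted limma p under 0.05 it was 1 of 8, against 24.3% of all genes, and the median difference was -0.70. Krt33b, an acidic hair keratin of the cortex, had -0.76, 1.52, 1.27 and 4.36 in 4-month samples 1 to 4, against 3.23, 2.47, 4.84 and 4.55 in 1-month samples 1 to 4, and its order was close to that of the Krtap genes (-2.15 ± 1.03, limma adjusted p = 0.241). Krt87, a basic hair keratin, had 1.94, 4.00, 2.16 and 4.33 in 4-month samples 1 to 4, against 4.38, 1.41, 4.57 and 4.64 in 1-month samples 1 to 4 (-0.64 ± 0.96, limma adjusted p = 0.743). Krt35, a keratin of the early cortex, did not share it. It had 2.72, 4.87, 4.21 and 4.41 in 4-month samples 1 to 4, against 4.18, 6.38, 3.98 and 4.26 in 1-month samples 1 to 4, with the highest value in 1-month sample 2, where most Krtap genes were low. The difference of Krt35 was -0.71 ± 0.70 (limma adjusted p = 0.587). Some low values of Krt33b and Krt87 were shared ratios. Krt33b had the same -0.76 as Krtap31-1 in 4-month sample 1 and the same 1.27 as Krtap15 in 4-month sample 3. For Krt87, the ratios in 4-month samples 1 and 3 and 1-month sample 2 were shared by 87, 49 and 52 probes of their arrays. Krt31, Krt32, Krt34, Krt36 and Krt86 differed by 0.52, -0.72, -0.08, -1.30 and -0.70 and did not pass, and Krt33a, Krt82 and Krt84 were not tested.

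The list of other hair shaft proteins, such as S100a3, Padi3 and desmoglein 4, gave 0 of 8 tested genes higher and 0 lower in limma. At an unadjusted limma p under 0.05 it was 3 of 8, against 24.3% of all genes, and the median difference was -1.31. The mean of 7 genes of this list was 1.81, 3.45, 2.09 and 3.33 in 4-month samples 1 to 4, against 4.26, 3.57, 4.71 and 4.70 in 1-month samples 1 to 4. Unlike the Krtap mean, this mean was higher in every 1-month sample than in any 4-month sample. In the inner root sheath, the layer that moulds the growing hair, 1 of 7 tested genes was higher at 4 months, against 4.19% of all genes. It was Padi2, a peptidylarginine deiminase, with a difference of 3.46 ± 0.82 (limma adjusted p = 0.0375).

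Regulators of the hair matrix, the dividing cells at the base of the follicle, differed by age. Of 19 tested, 9 were lower and 0 higher at 4 months in limma, against 3.06% lower over all genes. Hoxc13, a homeobox factor that drives hair keratin and Krtap genes in mouse, had -2.37, 0.76, 0.49 and 0.34 in 4-month samples 1 to 4, against 2.53, 1.73, 3.34 and 3.53 in 1-month samples 1 to 4. Hoxc13 was lower in every 4-month sample (-3.09 ± 0.73, limma adjusted p = 0.0362). Its 4-month ratios were shared with many probes of the array, 93 in sample 1 and 158 to 1473 in samples 2 to 4, and it was not tested with repeated values read as not measured. Lef1, a factor of Wnt signalling in the matrix, had -2.74, -1.01, -1.66 and -1.39 in 4-month samples 1 to 4, against 1.44, 1.62, 1.22 and 1.57 in 1-month samples 1 to 4 (-3.22 ± 0.38, limma adjusted p = 0.0046). Its 1-month samples were alike, also across the ID numbers between which the Krtap genes differed. Dlx2 (-3.62), Dlx4 (-3.19), Dlx1 (-2.05) and the vitamin D receptor gene Vdr (-1.68) also passed (limma adjusted p from 0.007 to 0.049). The count of lower regulators was 0 on means per ID number, 3 with muscle as a covariate, 2 without 1-month sample 1, 2 with zeros kept, and 5, 4 and 4 without 4-month samples 1, 2 and 3. Over 20 alternatives Lef1 kept its call in all but that on ID means (adjusted p = 0.0746, range 0.0018 to 0.0746), and Hoxc13 in 10 of the 19 that tested it (adjusted p from 0.01 to 0.1507).

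Msx2, a homeobox factor of hair shaft differentiation in mouse, did not pass. It had 0.63, 1.27, 0.05 and 1.58 in 4-month samples 1 to 4, against 5.80, 1.16, 5.90 and 6.36 in 1-month samples 1 to 4, so that 1-month sample 2 lay among the 4-month samples (-3.89 ± 1.21, limma adjusted p = 0.0859). Without 1-month sample 2 it passed (-5.06, adjusted p = 0.0077). Foxn1, a winged-helix factor needed for hair shaft keratinization, was measured at 0.95 in 4-month sample 2, against 4.08 and 3.64 in 1-month samples 3 and 4, and was not tested. Dlx3 had 0.42 and 1.52 in 4-month samples 1 and 2, against 4.62 and 4.37 in 1-month samples 1 and 4, and was not tested either. Among follicle stem cell genes 1 of 13 was higher at 4 months, Nfatc1 (1.34, limma adjusted p = 0.037), and 1 lower, Lgr5 (-1.47, limma adjusted p = 0.0219). Over all genes 4.19% were higher and 3.06% lower. Cell division genes fell in 22 of 29 tested, with 0 higher and a median of -1.64 (limma). Their mean was -3.04, -2.78, -2.43 and -1.84 in 4-month samples 1 to 4, against -0.62, -0.54, -1.05 and -1.09 in 1-month samples 1 to 4, and the ages did not overlap. The count of cell division genes lower was 0 on means per ID number, 4 with muscle as a covariate, 6 without 1-month sample 1, 8 with zeros kept, and 12 when 1-month sample 2, 4-month sample 1 or 4-month sample 2 was left out. Among the single genes, the calls held in 18 of 19 alternatives for Dlx4, 16 of 20 each for Dlx1 and Dlx2, 13 of 20 for Nfatc1, 12 of 16 for Lgr5, 10 of 19 for Padi2 and 7 of 20 for Vdr. Dlx4 and Padi2 were not tested with repeated values read as not measured. The Dlx4 ratios in 4-month samples 1 to 4 were shared by 93, 152, 424 and 108 probes of their arrays.

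**Figure D5:**
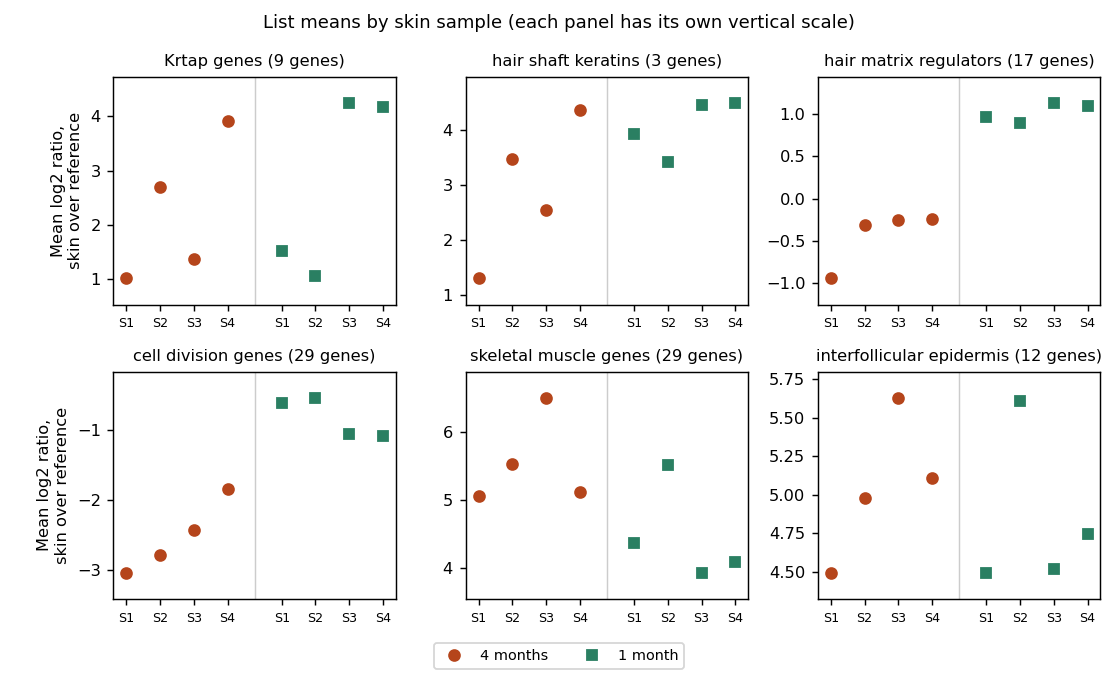
Mean log2 ratio of skin over reference in each skin sample (circles, 4 months; squares, 1 month) for 6 gene lists, over genes with a value in all 8 samples; each panel has its own vertical scale. Krtap and hair shaft keratin means overlap between the ages, whereas hair matrix regulators and cell division genes lie lower in every 4-month sample than in any 1-month sample.

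Genes with a sample pattern most like the family were listed by Pearson correlation with the mean of the 9 Krtap genes, over 8 samples and 12388 genes. Samples of 1 ID number are not independent, so the correlations are descriptions without a test. Of these genes, 77 exceeded 0.9, and the median over all was -0.02. The highest were Etf1 (0.982), a translation termination factor, Smpd2 (0.977), a sphingomyelinase, Zgpat (0.976), Gprc5d (0.972), Prelid3b (0.971), Car6 (0.970), a secreted carbonic anhydrase, Ell2 (0.968), a transcription elongation factor, Nom1 (0.964), Rbm34 (0.964) and Dusp14 (0.964), a protein phosphatase. Most of them changed little in size, as with Etf1, which ran from -0.18 to 0.39 at 4 months and from -0.19 to 0.55 at 1 month.

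Gprc5d, Car6 and Dusp14 changed on the scale of the Krtap genes. Gprc5d, an orphan receptor expressed in keratinizing cells of the hair cortex, had -0.06, 2.16, 1.27 and 4.31 in 4-month samples 1 to 4, against 1.94, 0.56, 4.53 and 4.50 in 1-month samples 1 to 4. Car6 had -0.81, 0.38, -1.28 and 2.41 in 4-month samples 1 to 4, against -1.70, -1.28, 2.91 and 2.32 in 1-month samples 1 to 4. In both genes 4-month sample 4 and 1-month samples 3 and 4 stood highest, as in the family. Low values of Gprc5d included shared ratios: its 1.27 in 4-month sample 3 was also that of Krtap15, and its 0.56 in 1-month sample 2 that of Krt84. Among named hair genes the correlation with the Krtap mean was 0.816 for Krt87, 0.793 for Krt33b, 0.653 for Padi3, 0.561 for Msx2, 0.532 for Hoxc13, 0.268 for Lef1 and -0.08 for Krt35.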

How the data were processed

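The authors deposited 1 table of log2 ratios of Cy3 and Cy5 signals (skin in Cy3, the reference in Cy5, per the labels). Background correction, normalization and scanner settings: not given in the sources used here. No intensity was used, so signal over background is unknown. The log base is not stated. Log2 is likely, since the largest size was 11.165. Every column was used. The sign was turned so that skin genes read positive. Exact zeros were read as not measured.

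Arrays of 1 sample were averaged. Of 41174 probes, 32664 had 1 gene symbol, 45 several and 8465 none, and gene numbers of 32524 matched the RefSeq table. Probes of a gene were averaged, and an additive fit over probes and samples filled single missing values. Probes and genes needed a value in 3 samples of each age. Ages were compared with limma 3.58.1 (lmFit, eBayes) in R 4.3.3, with ID number as a random block (duplicateCorrelation, statmod 1.5.0, consensus 0.313), over 13501 genes, Benjamini-Hochberg adjusted, threshold 0.05. The script was tested on simulated data.

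The members, lists and tests were chosen with earlier results of these data known. Named genes were every tested Krtap gene of the 3 classes, Hoxc13, Foxn1, Lef1, Msx2 and Dlx3, up to 6 genes past the threshold per hair list, and the 10 genes most like the Krtap mean. Unclassed and untested members, Xist and Kdm5d were added after values were seen. Other lists gave 0 higher and 3 lower of 5 melanocyte genes tested, and 0 of 13 adipocyte, 4 sebaceous, 13 fibroblast, 8 B cell, 5 T cell and 11 macrophage genes past the threshold in limma (2, 0, 3, 1, 0 and 6 at an unadjusted p under 0.05). Over all genes 7.25% passed the threshold in limma, and 24.3% had an unadjusted p under 0.05.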

Additional observations from a re-analysis of the deposited data

Results flagged for a closer look

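Samples were screened for values far from the other 3 of their age, by the gap to the nearest value over the range. Of 103 groups of 4 values tested (each tested Krtap gene, named gene and list mean at each age), 5 held such a sample, and chance gives about 1 in 20. No Krtap gene and no Krtap mean was among them. Hoxc13 was -2.37 in 4-month sample 1, against 0.34 to 0.76 in the other 4-month samples. That ratio was held by 93 probes of the array, the Dlx4 probe among them. The mean of the hair matrix regulators was -0.94 in that sample, against -0.31 to -0.24 in the others. In 1-month sample 2, Msx2 was 1.16 (5.80 to 6.36 in the other 1-month samples), Krt87 was 1.41 (4.38 to 4.64), a ratio held by 52 probes of that array, and Krt35 was 6.38 (3.98 to 4.26). Krtap genes were low in both of these samples.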

How the results depend on the processing

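In 21 of 21 alternatives 0 Krtap genes passed, with 0 to 5 at an unadjusted p under 0.05 among the 9 to 42 tested (limma). The smallest adjusted p was 0.0649, for Krtap31-1 with the Xist level as a covariate. The family median ran from -1.11 with zeros kept to 0.67 with muscle as a covariate. In every alternative that tested them, 5 of 19 genes kept their sign (Krtap4-6, Krtap9-1, Krtap15, Krtap16-3 and Krtap31-1). Krtap15 was tested in 11 alternatives and the others named in 20 each. The number of members over 2 between the 1-month ID numbers was 12, against 33 with zeros kept, 5 with repeated values read as not measured and 10 with first arrays only, all chosen after seeing the data. Over all genes, 566 were higher and 413 lower. These counts were 1113 and 909 without the block, 0 and 0 on means per ID number (limma, 2530 at an unadjusted p under 0.05), 337 higher with zeros kept, and 76 and 108 with muscle as a covariate, where the median of all genes was -0.0265, against 0.0312. Leaving out 1 sample gave 102 to 1215 higher and 55 to 957 lower. The counts were 102 and 55 without 1-month sample 1, 290 and 183 without sample 1 of 4 months, 290 and 214 without its sample 2, and 269 and 227 without its sample 3. Leaving out 4-month sample 4 gave 1215 and 957. The causes were not tested. Without 1-month sample 2 and 4-month sample 3 together the block could not be fitted and was dropped (family median -0.70). No paired analysis was possible because no ID number occurred at both ages and replicate numbers were given in accession order. Without intensities, values near background cannot be set apart.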
